A study of Mus musculus with 71 samples.

Results

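Among the 25697 probes on 71 arrays of mouse cerebellum RNA, 4 were followed here over every group of the study. They are ILMN_2648669, ILMN_1239843, ILMN_3132361 and ILMN_2776710. They were chosen by their difference between Csbm/m and wild-type (WT) mice after saline injections, in young or in old animals. GEO's annotation of the array pairs 3 of them with a gene. ILMN_2648669 reads Gpnmb, ILMN_1239843 reads Clec7a and ILMN_3132361 reads Ncoa4, while ILMN_2776710 is not listed there and is given by its ID. Csbm/m mice are homozygous for a mutation of Csb, also named Ercc6, whose protein restarts transcription at damaged DNA and whose loss in people causes Cockayne syndrome. They are written Csb below.

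Gpnmb encodes a membrane glycoprotein of endosomes and lysosomes that macrophages and microglia make when they take up and digest large amounts of lipid or debris. Clec7a encodes dectin-1, a receptor of myeloid cells for fungal beta-glucans, and in brain it marks microglia that surround dying neurons, myelin debris or protein deposits. Ncoa4 encodes the receptor that carries ferritin to the lysosome, where its iron is released. Gpnmb and Clec7a are both on chromosome 6, and Ncoa4 is on chromosome 14, the chromosome that also carries Ercc6.

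Both probes on chromosome 6 were chosen for a higher level in Csb mice, so the 250 bases before the start of Gpnmb and Clec7a are shown, from RefSeq on build GRCm38.p6, 5′ to 3′ on the strand of the gene. The Gpnmb window is chr6:49036268-49036517 on the plus strand. The Clec7a window is chr6:129472786-129473035 on the minus strand, before the outermost of the 2 starts listed. Capitals mark matches to any of 5 short motifs, searched on both strands. They were the E-box CACGTG, the M-box core CATGTG, the ETS core GAGGAA, the AP-1 site TGAGTCA and the TATA box TATAAA.
Gpnmb: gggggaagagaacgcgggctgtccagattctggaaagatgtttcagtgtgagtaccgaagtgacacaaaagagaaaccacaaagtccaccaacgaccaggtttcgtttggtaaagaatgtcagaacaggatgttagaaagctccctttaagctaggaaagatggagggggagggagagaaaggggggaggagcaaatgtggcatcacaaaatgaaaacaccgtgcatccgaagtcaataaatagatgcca
Clec7a: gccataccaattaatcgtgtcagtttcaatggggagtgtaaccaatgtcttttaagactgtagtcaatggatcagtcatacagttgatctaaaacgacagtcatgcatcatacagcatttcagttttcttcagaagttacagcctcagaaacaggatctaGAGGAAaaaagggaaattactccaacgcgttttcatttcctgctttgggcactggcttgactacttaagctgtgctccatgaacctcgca
The only match was 1 copy of GAGGAA in the Clec7a window, beginning 90 bases before the start. That motif is found in 23.3% of the 32851 windows of this length in the same table. The other motifs, with no match in either window, are found in 6.02% (CACGTG), 12.3% (CATGTG), 4.46% (TGAGTCA) and 12.4% (TATAAA) of the windows.

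All mice were male on a C57BL/6 background. In the diet arm (42 arrays), WT and Csb mice were kept on 1 of 4 diets from 4 months of age until 1 year. These were a standard AIN-93G diet (Csb 6 arrays, WT 4), a high-fat diet with 60% of calories from fat, mainly hydrogenated coconut oil (Csb 7, WT 4), 40% caloric restriction of the standard diet (Csb 6, WT 4) and the standard diet with resveratrol at 100 mg per kg of chow (Csb 6, WT 5). In the injection arm (29 arrays), mice on house chow aged 4 months (young) or 18 months (old) were injected with nicotinamide riboside (NR), from which cells make NAD+, at 500 mg per kg per day, or with saline, into the peritoneum for 1 week. Csb arrays number 3 for young saline, 3 for young NR, 3 for old saline and 4 for old NR, and WT arrays 4, 4, 3 and 5. Nothing in the labels ties each array to its own animal, and the p-values therefore reflect how far these arrays spread, which may be technical.

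Levels are log2 normalized intensities. The arms were normalized separately, so no level is compared between them. A probe counts as detected on an array at a detection p under 0.01, and a difference is called at an adjusted p under 0.05 of limma's test over all 14883 probes kept in the diet arm or 13948 in the injection arm. Gpnmb and Ncoa4 were detected on 71 of 71 arrays through these probes, ILMN_2776710 on 41 of 42 and 29 of 29, and Clec7a on 19 of 42 and 20 of 29. The table has 0 probes named Ercc6, so the mutated gene could not be used to check the labels. As a check of the tissue, 3 of 3 markers of cerebellar granule cells and 1 of 3 of Purkinje cells passed the detection filter in both arms. That filter does not speak for each array. The summed intensity of the granule markers ran from 1115 to 21812 on Csb restricted arrays. On standard-diet arrays it ran from 1452 to 14859 in Csb and from 2338 to 13283 in WT. The Purkinje marker ran from 205 to 22305, 433 to 21102 and 70.6 to 14690 in the same groups. The part of this unevenness in the results was not tested.

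Before the results, 3 sets of arrays need naming. The array labelled Csb young NR replicate 2 read 7.37 for Gpnmb, 5.02 for Clec7a and 8.91 for Ncoa4, where its group's other arrays read 10.26 and 10.26, 7.72 and 7.80, and 7.43 and 7.29. All 3 of its values were within the range of the young WT arrays. Over 27 other probes that differed by genotype under 3 diets (at least 1 log2 unit, called, same direction), it was nearer to its own group on 12. These probes include ILMN_2653132 and ILMN_2663258 of Clec7a. The other 28 arrays of the injection arm were nearer to their own groups on 11 to 23, so this count did not set the array apart. Csb young NR replicate 2 is called the discordant array below, and the tests that it enters, and the descriptions that it moves, are given with and without it. It was picked by its values of Gpnmb, Clec7a and Ncoa4, so leaving it out narrows their spread by construction. Calls made without it, also of genes that vary with these 3, are descriptions and no independent support. The array labelled Csb old saline replicate 3 had Clec7a at 5.77 against 8.04 and 7.76, and a summed intensity of the microglial markers Cx3cr1 and Aif1 of 151 against 1180 and 1068. The 3 arrays labelled WT old saline had Ncoa4 near the Csb level, as described below. Whether the labels of these arrays are right could not be checked here.

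**Figure D1:**
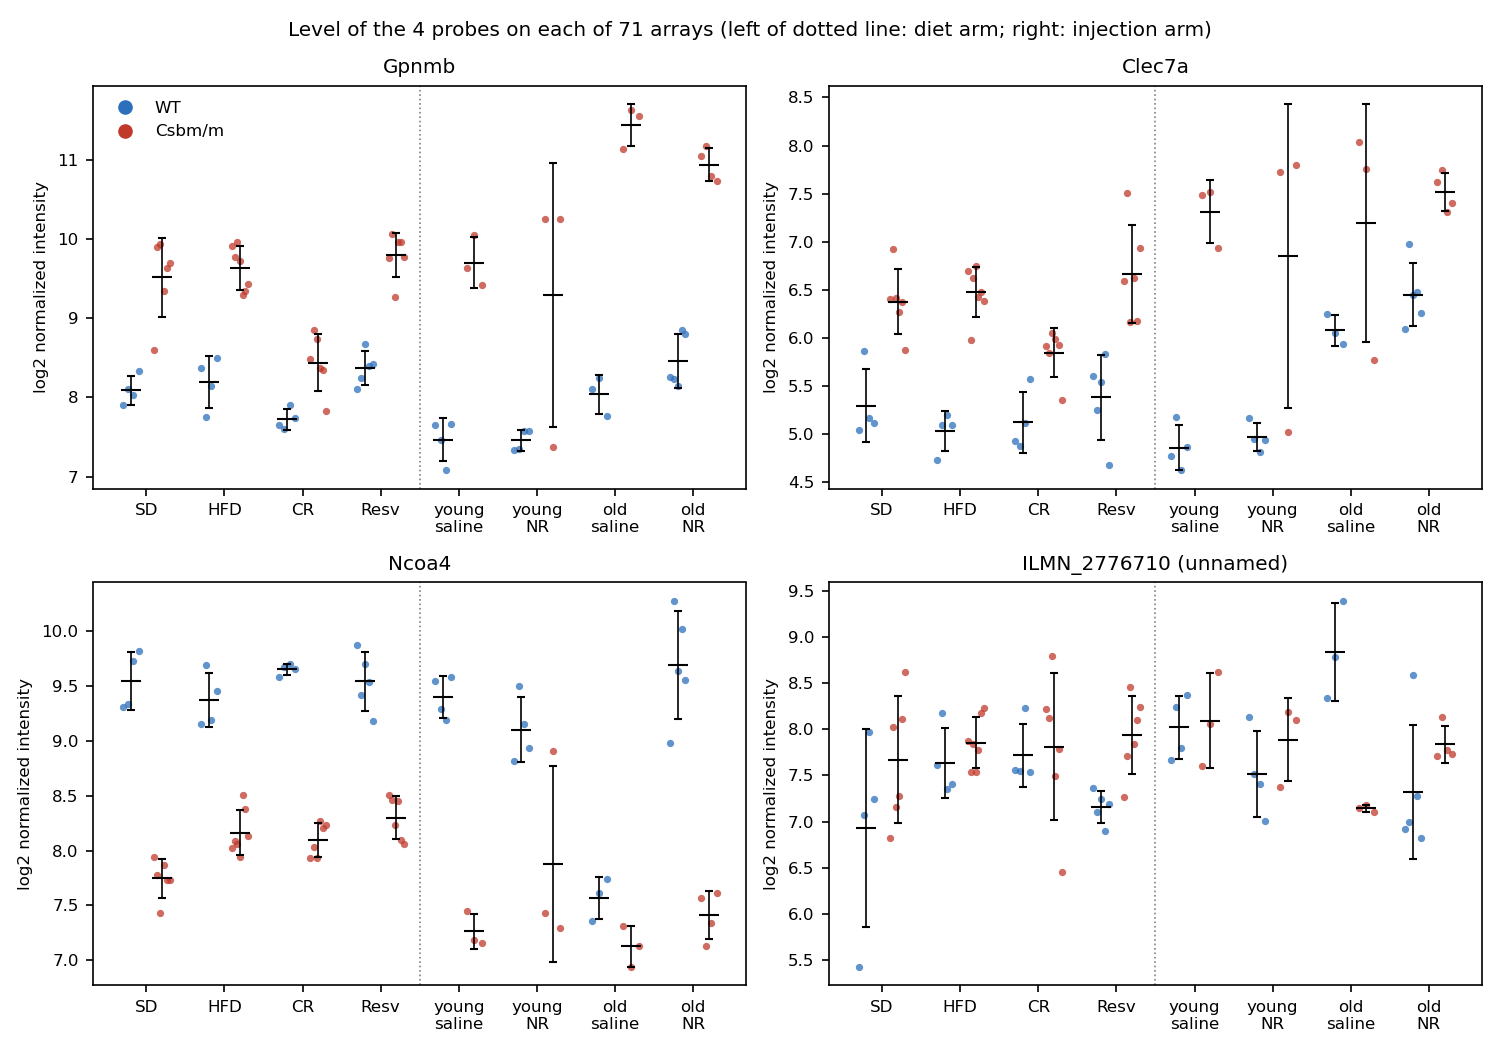
Log2 normalized intensity (vertical axes) of the 4 probes on every array, by diet (SD standard, HFD high-fat, CR caloric restriction, Resv resveratrol) or by age and injection. Points are arrays, blue for WT and red for Csbm/m, and black marks give the mean and SD of each group. The means of Gpnmb and Clec7a are higher and that of Ncoa4 is lower in Csbm/m in each diet, while the WT and Csbm/m points of ILMN_2776710 overlap in each group except old saline.

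In the saline mice that chose the probes, Gpnmb was 4.73-fold higher in young Csb mice (levels 9.64, 10.05 and 9.42) than in young WT mice (7.65, 7.46, 7.08 and 7.66). In old mice it was 10.6-fold higher, with 11.14, 11.63 and 11.55 against 8.11, 8.24 and 7.76. By size of difference it ranked 7 in young and 2 in old mice among 13948 probes. Clec7a was at least 2.63-fold higher in young Csb mice, since no young WT array detected it, and a bound has no rank. In old mice the fold was 2.17, with 8.04, 7.76 and 5.77 in Csb against 6.25, 6.05 and 5.93 in WT, and the groups overlapped. Without Csb old saline replicate 3 it was 3.55, with no overlap.

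Ncoa4 was 4.39-fold lower in young Csb mice (7.45, 7.18 and 7.16) than in young WT mice (9.55, 9.29, 9.19 and 9.58), rank 11. In old saline mice the difference was -0.45 on the log2 scale, rank 2072. ILMN_2776710 was chosen on the old mice alone. It was 3.23-fold lower in old Csb (7.15, 7.18 and 7.10) than in old WT mice (8.34, 8.78 and 9.39), rank 18, and differed by 0.08 on the log2 scale in young mice, rank 8139. These values chose the probes and carry no test.

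Gpnmb was higher in Csb than in WT mice under the standard, high-fat and resveratrol diets, by about the same size in each (2.69- to 2.71-fold). On the standard diet the Csb arrays ran from 8.60 through a median of 9.66 to 9.94, and the WT arrays read 7.90, 8.10, 8.03 and 8.33. The lowest Csb array was above the highest WT array. The log2 difference was 1.43 ± 0.20 (SE), a 2.69-fold higher level (adjusted p = 2.81e-06). In this comparison 6.55% of all probes were called higher in Csb and 7.25% lower.

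On the high-fat diet Gpnmb ran from 9.29 through 9.72 to 9.96 in Csb and read 8.37, 7.75, 8.15 and 8.50 in WT, again with no overlap. This gave a log2 difference of 1.44 ± 0.19 (adjusted p = 1.36e-06), where 4.95% of probes were called higher and 3.68% lower. With resveratrol the range was 9.27 to 10.06 in Csb (median 9.87), against 8.10, 8.24, 8.67, 8.40 and 8.42 in WT. The log2 difference was 1.43 ± 0.19 (adjusted p = 5.76e-07), where 9.43% of probes were called higher and 8.96% lower.

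Under caloric restriction the Csb arrays of Gpnmb read lower than on the other diets, from 7.83 through 8.43 to 8.85, and overlapped the WT arrays at 7.65, 7.60, 7.90 and 7.74. This gave a log2 difference of 0.72 ± 0.20 and was not called (adjusted p = 0.117). Few probes were called in this comparison, 0.128% higher and 0.168% lower. ILMN_2648669 was called there with array weights (0.76, adjusted p = 0.00571) and after scaling each array to a z-score (0.80, adjusted p = 0.0441).

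After NR, Gpnmb in old mice read 11.05, 11.18, 10.80 and 10.73 in Csb and 8.26, 8.23, 8.14, 8.85 and 8.80 in WT. Every Csb array was above every WT array, and the log2 difference of 2.48 ± 0.35 (5.60-fold, adjusted p = 0.000529) stood among few calls, since 0.0143% of probes were called higher and 0.043% lower. In young mice after NR the Csb arrays read 10.26, 7.37 and 10.26 and the WT arrays 7.34, 7.35, 7.57 and 7.58. The log2 difference was 1.84 ± 0.40 and was not called (adjusted p = 0.252), where 0% of probes were called higher and 0.0143% lower.

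Without the discordant array, the young difference in Gpnmb was 2.80 ± 0.22 on the log2 scale (adjusted p = 2.99e-08), with 0.201% of probes called higher and 0.0215% lower. The old NR difference, whose spread that array also enters, kept its size with an SE of 0.17 (adjusted p = 7.29e-10), and 0.0645% of probes were then called in each direction. The value of that single array therefore decided whether Gpnmb was called in young NR mice. As Gpnmb was among the values that picked the array, the smaller SE without it was built in.

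Of the 4 probes for Gpnmb, 2 others were never detected. The remaining one, ILMN_2614655, was detected on 2 of 42 arrays of the diet arm and 12 of 29 of the injection arm, and it was tested in the latter. In old NR mice it was 2.31 ± 0.20 higher on the log2 scale in Csb (adjusted p = 1.23e-07), a level at least 3.07-fold higher, since no WT array detected it. In young NR mice, where no WT array detected it either, it differed by 1.10 ± 0.23 (adjusted p = 0.165), at least 1.02-fold. Without the discordant array the log2 difference was 1.57 ± 0.17 (adjusted p = 8.21e-06), a level at least 1.41-fold higher.

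**Figure D2:**
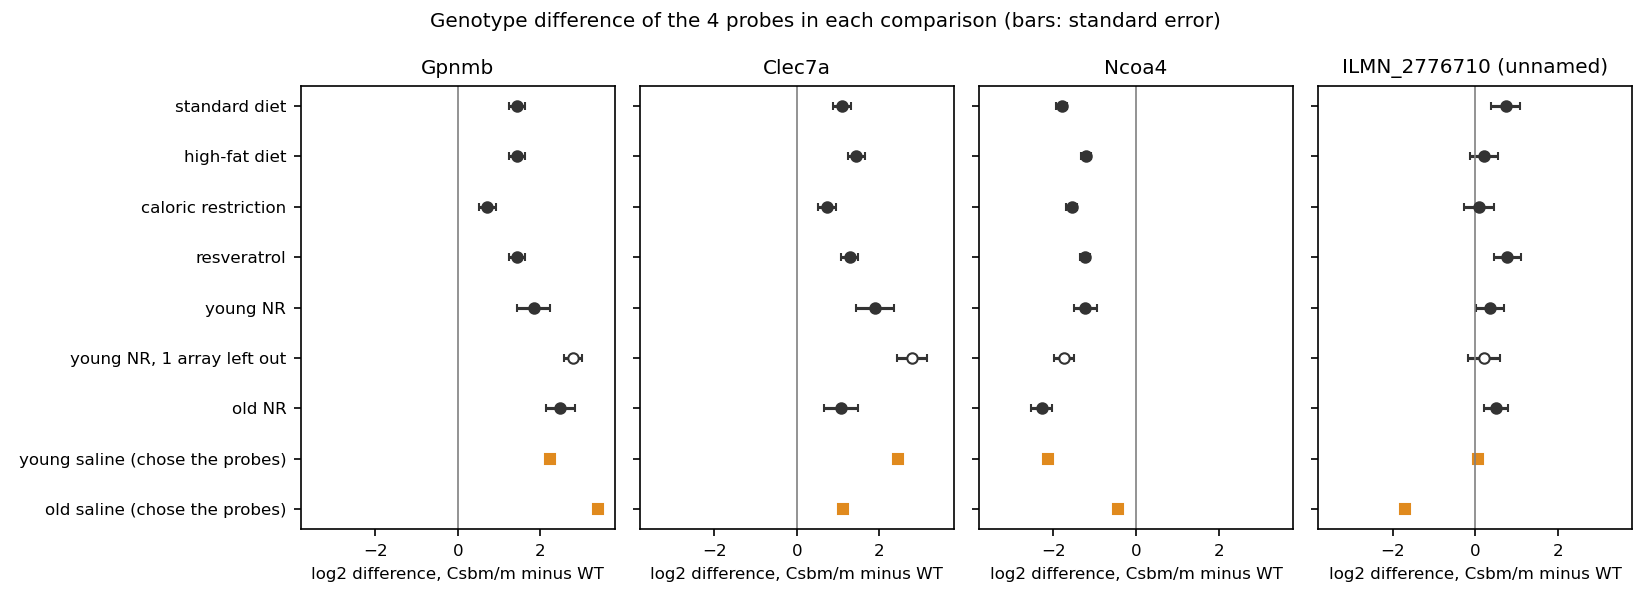
Difference between Csbm/m and WT (horizontal axes, log2) of each probe in 8 pairs of groups, with the standard error as a bar. Open circles leave out the discordant array (Csb young NR replicate 2), and orange squares, shown without error, are the saline comparisons that chose the probes. Gpnmb and Clec7a are right of 0 and Ncoa4 left of 0 in each pair, and ILMN_2776710 is far left of 0 in old saline mice alone.

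Clec7a was higher in Csb mice under the same 3 diets. On the standard diet it (ILMN_1239843) ran from 5.87 through 6.38 to 6.92 in Csb and read 5.04, 5.86, 5.16 and 5.11 in WT, with 5 of 6 and 1 of 4 arrays detecting it. This gave a log2 difference of 1.08 ± 0.22 (2.12-fold, adjusted p = 0.00106), and it missed the threshold with each array's background level as a covariate (0.98, adjusted p = 0.0515). On the high-fat diet it ran from 5.98 through 6.47 to 6.75 in Csb, and no WT array (4.73, 5.09, 5.20 and 5.09) detected it. The level was at least 1.54-fold higher in Csb (adjusted p = 1.03e-05).

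With resveratrol Clec7a ran from 6.16 through 6.60 to 7.51 in Csb and read 5.60, 5.25, 5.54, 5.83 and 4.67 in WT. The groups did not overlap, and the log2 difference was 1.28 ± 0.21 (adjusted p = 2.91e-05). The probe was detected on 6 of 6 Csb and 1 of 5 WT arrays, so this size rests mostly on WT values not above background. Under caloric restriction 0 of 6 Csb arrays and 0 of 4 WT arrays detected ILMN_1239843, so no fold is given. Its log2 values differed by 0.73 ± 0.22 there (adjusted p = 0.163, and 0.0166 with array weights).

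After NR, Clec7a (ILMN_1239843) in old mice read 7.62, 7.74, 7.31 and 7.40 in Csb and 6.09, 6.97, 6.44, 6.48 and 6.26 in WT. The groups did not overlap, yet the log2 difference of 1.07 ± 0.40 was not called (adjusted p = 0.227, and 0.141 without the discordant array). It was called with array weights (1.09, adjusted p = 0.0356). In young NR mice the Csb arrays read 7.72, 5.02 and 7.80, and no WT array (5.16, 4.95, 4.81 and 4.93) detected the probe. The log2 difference of 1.89 ± 0.46 was not called (adjusted p = 0.569). With the discordant array left out, the level was at least 3.74-fold higher in Csb (adjusted p = 0.000223).

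Of the 4 probes for Clec7a, 1 other was never detected, and ILMN_2653132 and ILMN_2663258 were tested in both arms. Both were called higher in Csb on the standard, high-fat and resveratrol diets, with adjusted p at or under 2.58e-05. ILMN_2653132 differed by 1.40 ± 0.22, 1.97 ± 0.22 and 1.77 ± 0.21 on the log2 scale. ILMN_2663258 was detected on no WT array on the standard or the high-fat diet, so its level was at least 1.98-fold and at least 2.07-fold higher there. With resveratrol, where 1 of 5 WT arrays detected it, it differed by 1.81 ± 0.16. Under caloric restriction ILMN_2653132 was called higher, at least 1.37-fold (adjusted p = 0.00666), while ILMN_2663258, again detected on no WT array, was not (adjusted p = 0.184). The 3 probes of this gene therefore gave different calls in the calorie-restricted mice. After NR neither ILMN_2653132 nor ILMN_2663258 was called, in old mice (adjusted p = 0.181 and 0.229) or in young mice (0.999 for each). Without the discordant array both were called higher in young Csb mice (0.0359 and 0.00914) and neither in old mice (0.151 and 0.165).

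Markers of microglia, the brain's resident phagocytes, were examined beside these genes. Of the 3 markers listed, Csf1r has no probe in the table. Cx3cr1, the fractalkine receptor, was higher in Csb on the standard diet (log2 difference 0.83 ± 0.24, adjusted p = 0.0164), the high-fat diet (0.95 ± 0.23, adjusted p = 0.00618) and with resveratrol (0.63 ± 0.22, adjusted p = 0.0418). Aif1, a calcium-binding protein of microglia, was higher on the high-fat diet (0.66 ± 0.20, adjusted p = 0.0306) and differed by 0.05 ± 0.20 on the standard diet. Neither marker was called under caloric restriction or after NR. On the standard, high-fat and resveratrol diets 6.55%, 4.95% and 9.43% of all probes were called higher in Csb.

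The summed intensity of the pair ran from 1107 to 1504 in Csb and from 730.3 to 881 in WT on the standard diet. It ran from 767 to 1413 and from 498 to 809 on the high-fat diet, from 949 to 1272 and from 650 to 930.4 under caloric restriction, and from 724 to 1413 and from 439 to 1142 with resveratrol. In young NR mice it read 906, 431 and 860.4 in Csb and ran from 529 to 766 in WT. The 431 is the discordant array, and the other Csb arrays were above each WT array. In old NR mice it ran from 667 to 874 in Csb and from 390 to 803 in WT. The part of these markers in the differences of Gpnmb and Clec7a was not tested. In whole tissue, more cells of a type and more RNA per cell cannot be told apart.

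A list of 24 genes known to rise in phagocytic microglia around lesions was drawn up after the gene names and values were known, so its counts are a description. Of its members, 22 have a probe and 19 were tested. On the standard diet 5 were called higher in Csb and 0 lower, where 6.55% of all probes were called higher, and the median log2 difference was 0.20 against -0.01 over all probes. On the high-fat diet 7 were higher and 0 lower, where 4.95% of all probes were higher (median 0.33 against -0.02). With resveratrol 9 were higher and 1 lower, where 9.43% and 8.96% of all probes were (0.37 against -0.03). Under caloric restriction 0 were called, where 0.128% of all probes were higher (0.06 against -0.0041).

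Trem2, a lipid-sensing receptor of microglia, and Tyrobp, its signalling partner, were among those higher on each of the other 3 diets. Trem2 was higher by 0.68 ± 0.16, 0.87 ± 0.16 and 0.98 ± 0.15 on the log2 scale on the standard, high-fat and resveratrol diets, and Tyrobp by 0.69 ± 0.16, 0.75 ± 0.16 and 0.97 ± 0.15. Ctsd, the lysosomal protease cathepsin D, was higher by 1.15 ± 0.17, 1.36 ± 0.17 and 1.65 ± 0.16, and Cst7, a protease inhibitor, by 0.66 ± 0.18, 0.72 ± 0.17 and 0.75 ± 0.17. Their adjusted p were at or under 0.0128. Fth1, the ferritin heavy chain that the Ncoa4 protein binds, was the member called lower, with resveratrol (-0.39 ± 0.12, adjusted p = 0.0165).

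After NR, 0 of the 19 were called in young or in old mice, where 0% and 0.0143% of all probes were higher, with medians of 0.16 and 0.41. Without the discordant array, 3 were called higher in young mice, where 0.201% of all probes were: Lgals3 (1.89 ± 0.34, adjusted p = 0.00994), Lyz2 (1.88 ± 0.30, adjusted p = 0.00181) and Cst7 (1.07 ± 0.23, adjusted p = 0.0387). A second added list, of 9 genes of resting microglia with 8 tested, had 1, 2 and 1 called higher on the standard, high-fat and resveratrol diets, 0 lower on each, and 0 called under caloric restriction or after NR. Those called were Cx3cr1 on each of these 3 diets and Gpr34 on the high-fat diet. With 6.55%, 4.95% and 9.43% of all probes called higher there, 1 of 8 on the standard and resveratrol diets is near the background. The 2 of 8 on the high-fat diet are above it. As the list was added after values were seen, nothing is read from these counts.

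**Figure D3:**
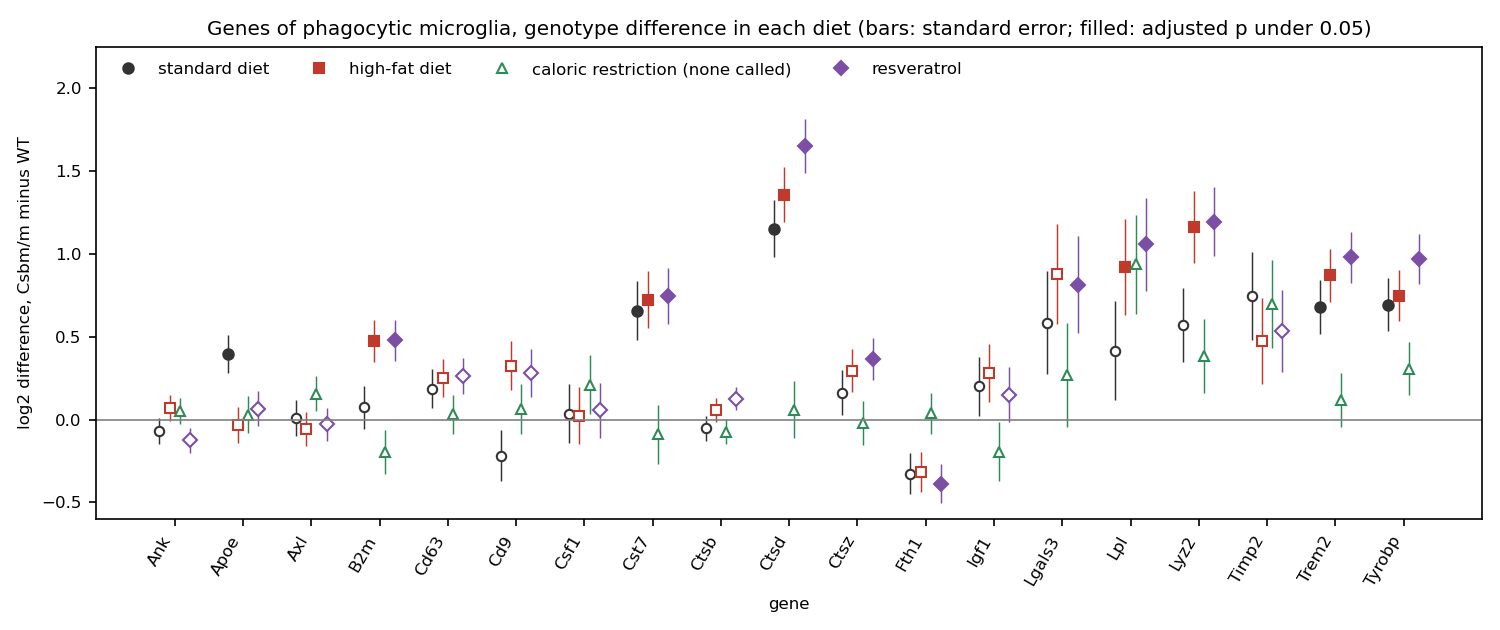
Difference between Csbm/m and WT (vertical axis, log2, with the standard error) of the 19 tested genes of phagocytic microglia (horizontal axis) in each diet; filled symbols have an adjusted p under 0.05. Ctsd, Cst7, Trem2 and Tyrobp are filled for 3 diets, and no symbol for caloric restriction is filled.

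The other marker lists were read in the same comparisons. Among astrocyte and Bergmann glia markers, Gfap and Aqp4 were higher in Csb on the high-fat diet (0.81 ± 0.26 and 0.70 ± 0.21) and with resveratrol (0.95 ± 0.26 and 0.76 ± 0.20). Slc1a3 was called on neither diet. Of the 2 tested oligodendrocyte markers, Mog was higher with resveratrol (0.59 ± 0.20) and Mbp was not called, with a median of 0.26 over both. On the high-fat and resveratrol diets 4.95% and 9.43% of all probes were called higher. None of the tested markers of Purkinje cells (1 of 3 tested), granule cells (3 of 3), choroid plexus (3 of 3), blood (2 of 3) or endothelium (2 of 3) was called by limma in any of the 6 genotype comparisons. Choroid plexus content was uneven: the summed intensity of its 3 markers, mostly Ttr, ran from 392.1 to 37657 among the Csb standard-diet, from 694 to 36145 among the Csb high-fat and from 2675 to 34291 among the Csb restricted arrays. WT groups were uneven as well, with 2229 to 35998 on the standard diet and 199 to 27935 and 139.5 to 25871 in old and young saline mice, while the WT high-fat arrays ran from 33525 to 39050. Its part in the results was not tested.

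Ncoa4 was lower in Csb mice in each diet, with no overlap between genotypes in the whole diet arm. Ncoa4 has 1 probe on the array, so no other probe of the gene could be set beside it. On the standard diet it ran from 7.43 through 7.76 to 7.94 in Csb and read 9.31, 9.34, 9.73 and 9.82 in WT. The log2 difference was -1.80 ± 0.13, a 3.49-fold lower level (adjusted p = 1.50e-12). On the high-fat diet it ran from 7.94 through 8.09 to 8.51 in Csb against 9.16, 9.69, 9.19 and 9.46 in WT (-1.21 ± 0.13, adjusted p = 9.28e-09).

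Under caloric restriction Ncoa4 ran from 7.93 through 8.12 to 8.27 in Csb against 9.58, 9.68, 9.70 and 9.66 in WT (-1.56 ± 0.13, adjusted p = 6.72e-10). It was the only one of the 4 probes called on that diet. With resveratrol it ran from 8.06 through 8.34 to 8.51 in Csb against 9.88, 9.42, 9.70, 9.54 and 9.18 in WT (-1.24 ± 0.13, adjusted p = 1.94e-09). The Csb arrays of all 4 diets were below the lowest WT array of the arm.

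After NR, Ncoa4 in old mice read 7.57, 7.13, 7.34 and 7.61 in Csb and 8.98, 10.28, 9.64, 10.02 and 9.56 in WT. This gave a log2 difference of -2.28 ± 0.25, a 4.87-fold lower level (adjusted p = 9.65e-06). In young NR mice the Csb arrays read 7.43, 8.91 and 7.29 and the WT arrays 8.82, 9.50, 9.16 and 8.94. The log2 difference was -1.23 ± 0.28 (adjusted p = 0.401), and -1.74 ± 0.24 without the discordant array (adjusted p = 0.000615).

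The WT old saline arrays stood apart for Ncoa4. They read 7.36, 7.61 and 7.74, below each other WT array of the injection arm, the lowest of which read 8.82. Their mean was 7.57 ± 0.19 (SD, n = 3), against 7.12 ± 0.18 (n = 3) in Csb old saline and 9.69 ± 0.50 (n = 5) in WT old NR mice. The same 3 arrays had Gpnmb and Clec7a in the range of the other WT arrays. Age after saline in WT and NR in old WT both rest on these arrays, and Ncoa4 differed by -1.83 and 2.12 on the log2 scale in them.

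In the order of genes on chromosome 14, Ncoa4 is separated from Ercc6 by 6 protein-coding genes. The 10 nearest genes with a kept probe on each side of Ncoa4 were read as well, a choice made after its values were known. Of their 26 probes, 4 were called on the standard diet (15.4%), 2 on the high-fat diet (7.69%), 3 under caloric restriction (11.5%), 6 with resveratrol (23.1%) and 0 in either age after NR. Over all probes 13.8%, 8.63%, 0.296% and 18.4% were called in the 4 diets, so the counts on the standard, high-fat and resveratrol diets are near the background. With the discordant array left out, 1 neighbour, Mapk8, was called higher in young NR mice and 0 in old. The called probes went both ways, 2 higher and 2 lower on the standard diet, 1 and 1 on the high-fat diet, 1 and 2 under caloric restriction, and 3 and 3 with resveratrol.

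Sncg, the gene of gamma-synuclein, has 2 probes that disagreed. ILMN_2939277 was lower in Csb on all 4 diets, by 2.20 ± 0.46, 1.50 ± 0.45, 1.97 ± 0.46 and 1.83 ± 0.44 on the log2 scale (standard, high-fat, restricted and resveratrol), while ILMN_2598478 was called on none and differed by 0.34 to 0.96 in the other direction. Hacl1, a peroxisomal lyase of fatty acid breakdown, was lower on the standard diet (-0.91 ± 0.17, adjusted p = 0.000241) and under caloric restriction (-0.81 ± 0.17, adjusted p = 0.0135). Arhgap22, a GTPase-activating protein, was higher in Csb on the high-fat diet (1.10 ± 0.22, adjusted p = 0.00083), under caloric restriction (1.09 ± 0.23, adjusted p = 0.0148) and with resveratrol (0.63 ± 0.21, adjusted p = 0.0350). Chat, the acetylcholine-synthesizing enzyme, was higher with resveratrol through both of its probes (1.15 ± 0.32 and 1.42 ± 0.46).

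At 1 of the 2 Sncg probes, Arhgap22 and Mapk8, as at Ncoa4, WT old saline mice read near or past the Csb level. ILMN_2939277 had a mean of 5.24 ± 0.68 in them, 5.89 ± 0.34 in Csb old saline and 7.03 ± 1.36 in WT old NR mice. Arhgap22 had 8.00 ± 0.36, 8.11 ± 0.28 and 6.71 ± 0.73 in the same order (SD; n = 3, 3 and 5). Mapk8, a stress-activated kinase, had 11.63 ± 0.19, 11.35 ± 0.11 and 11.10 ± 0.20. These 3 genes were picked out of the 20 after their values were seen.

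**Figure D4:**
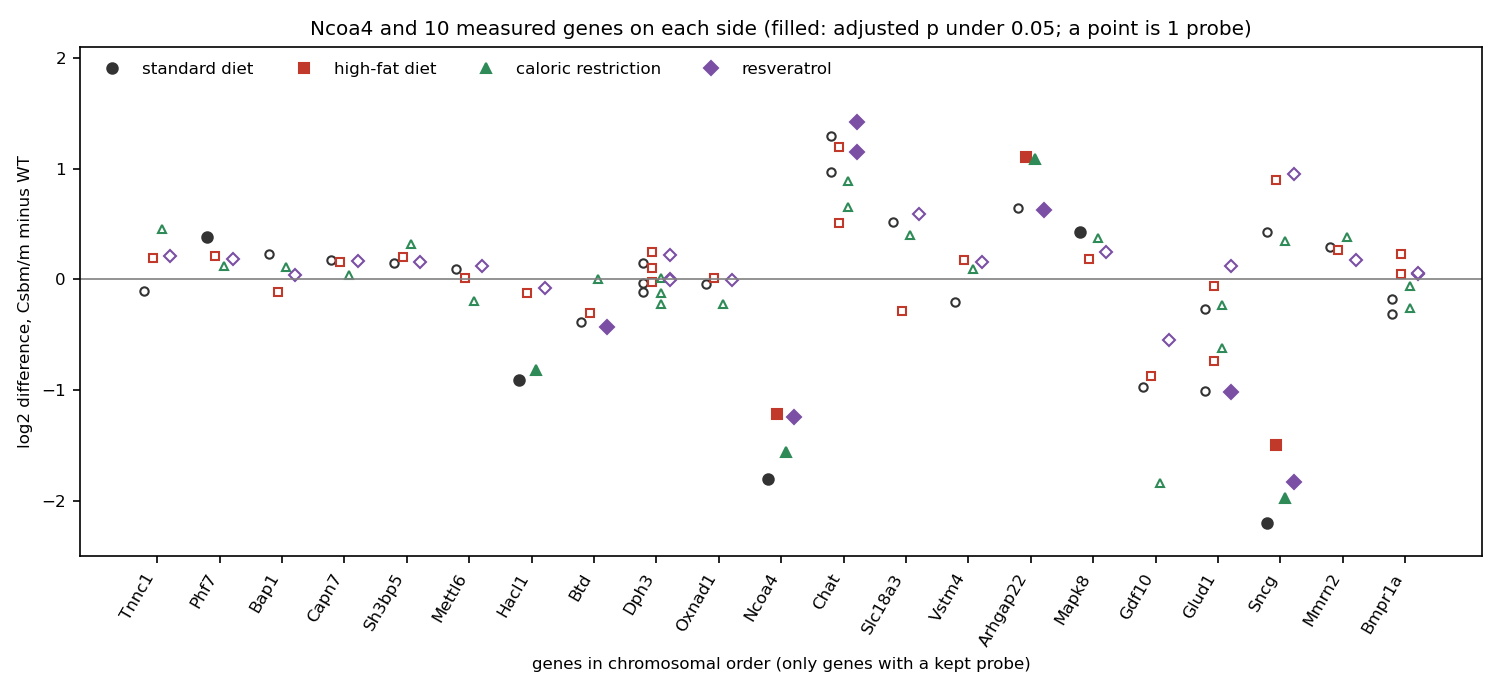
Difference between Csbm/m and WT (vertical axis, log2) of Ncoa4 and the 10 nearest genes with a kept probe on each side, in chromosomal order (horizontal axis), in the 4 diets; each point is 1 probe, and filled points have an adjusted p under 0.05. Ncoa4 and 1 of the 2 Sncg probes are filled and below 0 for all 4 diets, and most points before Ncoa4 lie near 0.

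ILMN_2776710 did not part the genotypes outside the old saline mice. On the standard diet it ran from 6.82 through 7.65 to 8.62 in Csb and read 5.43, 7.07, 7.97 and 7.24 in WT, a log2 difference of 0.74 ± 0.35 (adjusted p = 0.159). The probe was detected on 3 of 4 of these WT arrays, so this size rests in part on a value not above background. On the high-fat diet it ran from 7.54 through 7.84 to 8.23 against 7.61, 8.18, 7.35 and 7.41 (0.21 ± 0.34, adjusted p = 0.752). Under caloric restriction it ran from 6.46 through 7.95 to 8.79 against 7.56, 7.55, 8.23 and 7.54 (0.09 ± 0.35, adjusted p = 0.941).

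With resveratrol ILMN_2776710 ran from 7.27 through 7.97 to 8.46 in Csb against 7.36, 7.10, 7.24, 6.90 and 7.19 in WT. This gave a log2 difference of 0.78 ± 0.33 (adjusted p = 0.0950), and it was called with array weights (0.83, adjusted p = 0.0116) and in a fit of these groups alone (0.78, adjusted p = 0.0125). After NR it read 7.37, 8.19 and 8.10 in young Csb and 8.13, 7.52, 7.41 and 7.01 in young WT mice (0.37 ± 0.34, adjusted p = 0.999). In old NR mice it read 7.71, 8.13, 7.77 and 7.73 in Csb and from 6.82 to 8.59 over the 5 arrays in WT (0.51 ± 0.29, adjusted p = 0.448). All 6 of these differences were above 0, opposite to the old saline mice that chose the probe, although that under caloric restriction was -0.18 with array brightness as a covariate. The groups overlapped in each.

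Among Csb mice 3 of the 4 probes differed between diets. The F test of any difference between the 4 diets called Gpnmb (adjusted p = 2.94e-05), Ncoa4 (0.00812) and Clec7a (0.0187) but not ILMN_2776710 (0.910), where 13.3% of all probes were called. Leaving out Csb caloric restriction replicate 6 gave Clec7a (ILMN_1239843) an adjusted p of 0.0629. With each array's background level as a covariate Clec7a and Ncoa4 (ILMN_3132361) had adjusted p of 0.0930 and 0.106, and with its brightness 0.118 and 0.0782. In WT mice none of the 4 was called (lowest 0.225, for Gpnmb), where 3.32% of probes were, although the Clec7a probe ILMN_2663258 was (0.00717), on WT values of which all but 1 array were not above background.

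Single diets were then set against the standard diet in Csb mice. Gpnmb (ILMN_2648669) was 2.12-fold lower under caloric restriction (-1.08 ± 0.18 on the log2 scale, adjusted p = 0.00172), where 0.0873% of probes were called. A fit of those 2 groups alone did not call it (adjusted p = 0.492). Clec7a differed by -0.53 ± 0.20 (adjusted p = 0.425). Ncoa4 was higher with resveratrol (0.55 ± 0.12, adjusted p = 0.00324) and on the high-fat diet (0.41 ± 0.12, adjusted p = 0.0136), where 13.5% and 17.1% of probes were called. The high-fat difference of ILMN_3132361 missed the threshold without Csb standard diet replicate 3 (0.35, adjusted p = 0.055), and with background level as a covariate both missed it (adjusted p = 0.0621 and 0.0891).

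Whether the genotype difference depended on diet was tested as an interaction. None of the 4 probes was called (adjusted p = 0.115 for Ncoa4, 0.221 for Gpnmb, 0.429 for Clec7a and 0.674 for ILMN_2776710), where 2.98% of probes were. With array weights ILMN_3132361 of Ncoa4 (0.0121) and ILMN_2648669 of Gpnmb (0.0481) were. The Clec7a probe ILMN_2663258 was called in the main test (adjusted p = 0.000275), but as it was above background on 1 WT array of the arm, that call rests in part on WT values with no measured level. Thus the smaller genotype differences of Gpnmb and Clec7a under caloric restriction are not shown to differ from those on the other diets through the probes followed here.

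In the diet arm the Gpnmb means stood, from high to low, in the order Csb resveratrol, high-fat, standard and restricted, then WT resveratrol, high-fat, standard and restricted. Each group's range overlapped that of the next, except WT standard diet and WT caloric restriction. Clec7a had the same Csb order and overlapped at each step. For Ncoa4 the 4 WT groups (9.37 to 9.66) came before the 4 Csb groups (7.75 to 8.30), and the one gap lay between WT high-fat and Csb resveratrol. ILMN_2776710 overlapped at each step, from 7.94 in Csb resveratrol to 6.93 in WT standard-diet mice.

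In the injection arm Gpnmb was highest in old Csb mice, 11.44 ± 0.26 (SD, n = 3) after saline and 10.94 ± 0.21 (n = 4) after NR, and the ranges of these groups overlapped. All arrays of both lay above those of young Csb mice. Clec7a was lowest in young WT mice, 4.85 ± 0.23 after saline and 4.96 ± 0.15 after NR (n = 4 each), below the range of each old WT group. ILMN_2776710 was highest in WT old saline (8.83 ± 0.53, n = 3) and lowest in Csb old saline mice (7.14 ± 0.04, n = 3), and neighbouring groups in that order overlapped.

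Old mice were compared with young mice after NR. In WT mice Clec7a was higher with age, at least 1.51-fold (log2 difference 1.49 ± 0.40, adjusted p = 0.0165), and Gpnmb differed by 1.00 ± 0.35 (adjusted p = 0.0578), where 14.2% of probes were called. ILMN_1239843 missed the threshold with array brightness as a covariate (1.21, adjusted p = 0.194). Of the other Clec7a probes, ILMN_2663258 was called (adjusted p = 0.0437) and ILMN_2653132 was not (0.0559). Without the discordant array, whose spread enters the fit, Clec7a (adjusted p = 0.00253), Gpnmb (0.00166) and Ncoa4 (0.59 ± 0.19, 0.0385) were all called, where 14% of probes were. Leaving out WT old NR replicate 1 also led to calls of Gpnmb (ILMN_2648669, 1.05, adjusted p = 0.0498) and Ncoa4 (ILMN_3132361, 0.77, adjusted p = 0.026).

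In Csb mice after NR none of the 4 was called with age, where 0.0143% of probes were, with or without that array. The log2 differences were 1.65 ± 0.40 for Gpnmb, 0.67 ± 0.46 for Clec7a, -0.47 ± 0.28 for Ncoa4 and -0.05 ± 0.34 for ILMN_2776710. Without that array they were 0.69, -0.24, 0.05 and 0.10. The second Gpnmb probe ILMN_2614655 was called both ways, at 1.54 ± 0.23 (adjusted p = 0.00469) and at 1.07 ± 0.17 (adjusted p = 0.0166). For the dependence of the genotype difference on age after NR, limma called 0% of probes, members included, with or without that array. With array weights 852 probes were called, among them ILMN_1239843 of Clec7a (-1.62, adjusted p = 0.0295), so this result depends on the weighting.

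NR and saline share the saline arrays that chose the probes, so their differences are given without a test. In young Csb mice NR minus saline was -0.41 for Gpnmb, -0.46 for Clec7a, 0.61 for Ncoa4 and -0.21 for ILMN_2776710 on the log2 scale. Without the discordant array these became 0.55, 0.45, 0.09 and -0.36, so Gpnmb and Clec7a turned sign on that array. In old Csb mice they were -0.50, 0.32, 0.29 and 0.69, and without Csb old saline replicate 3 Clec7a turned to -0.39 (the others -0.45, 0.29 and 0.67). In young WT mice the values were -0.0011, 0.11, -0.30 and -0.50, and in old WT mice 0.42, 0.37, 2.12 and -1.51. With all arrays the NR and saline ranges overlapped except for Ncoa4 in old WT and ILMN_2776710 in old Csb mice. Without those arrays they also did not overlap for Gpnmb and Clec7a in young Csb or for Clec7a in old Csb mice. That leaves 2 against 3 arrays in young and 4 against 2 in old Csb mice. The share of all probes without overlap is not given, so nothing is read from these gaps.

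Likeness over the 71 arrays was measured by Pearson's r after each arm's mean was subtracted, against 13736 other probes. The 3 probes most like Gpnmb were the unnamed ILMN_2689785 (r = 0.90, 0.77 in the diet and 0.95 in the injection arm), Lyz1, a lysozyme (0.90, 0.84 and 0.92), and Lgals3, galectin-3 (0.88, 0.76 and 0.94). For Clec7a they were its own 2 probes ILMN_2663258 (0.93) and ILMN_2653132 (0.89) and Ccl4, a chemokine (0.87, 0.83 and 0.90). For Ncoa4 they were Tmem254a (0.82), Entpd4 (0.77) and Thap4 (0.72, 0.94 in the diet and 0.55 in the injection arm). For ILMN_2776710 they were the unnamed ILMN_2726005 (0.79), Mpp4 (0.78) and Trim39 (0.77). Without the discordant array the same 3 probes came first for each member.

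Among themselves, Gpnmb and Clec7a had r = 0.84 in both arms, and Ncoa4 ran against them at -0.74 and -0.68 over all arrays. ILMN_2776710 had r between -0.26 and 0.08 with the other 3. Without the discordant array the values for the first 3 were 0.83, -0.74 and -0.68. Csb old saline replicate 3 parted the first pair, with Gpnmb at 11.55 and Clec7a at 5.77. The arrays share groups and genotypes, and include those that chose the probes, so these values describe the arrays and carry no test.

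Lists of the pathways the study concerns were read in the 6 genotype comparisons. Of 15 genes of nucleotide excision repair, the pathway of the Csb protein, 11 were tested and 0 were called higher in Csb. On the standard, high-fat and resveratrol diets 1, 1 and 3 were called lower, where 7.25%, 3.68% and 8.96% of all probes were, so single calls are near the background. Ercc8, its partner in transcription-coupled repair, was lower on the standard diet (-0.45 ± 0.11, adjusted p = 0.00745). Gtf2h4 of the TFIIH complex was lower on the high-fat diet and, with Ercc3 and Ercc4, with resveratrol, and 0 were called by limma in the other 3 comparisons. Medians ran from -0.14 to 0.04 on the log2 scale.

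Of 12 genes of NAD metabolism, 7 were tested, and only Nmnat2, an NAD-synthesizing enzyme of axons, was called, lower on the standard diet (-0.52 ± 0.17, adjusted p = 0.0423), where 7.25% of all probes were. Of 6 genes of ketone use, 2 were tested and 0 called by limma in any of the 6.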

How the data were processed

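RNA of mouse cerebellum was read on Illumina MouseRef-8 v2 bead arrays. The deposited table gives, per the file headers, an average intensity on a linear scale, not normalized, and a detection p-value for each probe and array. GenomeStudio 1.9.0 comes from the submitters' processing notes, and further upstream steps were not stated in what was used here. The series matrix, as the authors deposited it, holds a score per probe that equals the array-wise z-score of the log intensity (r = 1 with log2 intensity on each array; medians -0.49 to -0.38), and served as an alternative. Probe names come from GEO's platform annotation (23978 of 25697 probes with 1 gene, 0 with several, 1719 unnamed), chromosomes and gene order from RefSeq on GRCm38.p6.

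The diet and the injection arm were handled apart with limma 3.58.1 (R 4.3.3). Its function neqc corrected background from the detection p-values, quantile-normalized and took log2 after an offset of 16. Probes detected (p under 0.01) on as many arrays as the smallest group (4 and 3) were kept: 14883 and 13948, 13737 in both. A linear model per arm held its 8 groups, with eBayes; tests are two-sided with Benjamini-Hochberg adjustment over all kept probes. A fold is given as "at least" where no array of the dimmer group detected the probe: per array, the higher of the lowest detected signal and the probe's own stood for it. The number of arrays limits the precision.

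The members, and all lists, were chosen with earlier results of these data known. Named beside the members are other probes of their genes, the 3 probes most like each, and genes of the lists. The lists of phagocytic and resting microglia, the neighbours of Ncoa4 and the diet-by-diet comparisons in Csb mice were added after values were seen. A gene of a list is read through its kept probe with the highest mean. Alternatives were no background correction, z-scores, joint normalization of the arms, no filter, only the groups compared, array weights, the replicate number as a block, background level or brightness as a covariate, the deposited scores, and leaving out each array. The tests were tested on simulated data with 200 changed probes per arm. No chip or scan date is given, so no batch could be entered. In the diet arm background level parted the genotypes on each diet, so a batch that follows it cannot be told apart from genotype. No pair of arrays held identical values (0 pairs), and the highest correlation between 2 arrays was 0.996.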

Additional observations from a re-analysis of the deposited data

Results flagged for a closer look

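In groups of 4 to 10 arrays, an array was singled out when its distance to the nearest other array was a large share of the group's range (Dixon's 95% critical value). Over 48 groups and probes, 5 were singled out, and chance gives about 1 in 20. For Clec7a these were Csb caloric restriction replicate 6, at 5.35 with the next array at 5.84, and WT standard diet replicate 2, at 5.86 with the next at 5.16. For ILMN_2776710 they were WT caloric restriction replicate 3, at 8.23 with the next at 7.56, Csb old NR replicate 2, at 8.13 with the next at 7.77, and WT old NR replicate 3, at 8.59 with the next at 7.28. Neither Gpnmb nor Ncoa4 gave one. The array labelled Csb young NR replicate 2 lies in a group of 3, which this rule does not cover.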

How the results depend on the processing

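Log2 differences follow, Csb minus WT or first minus second. For Gpnmb (ILMN_2648669), Clec7a (ILMN_1239843), Ncoa4 (ILMN_3132361) and ILMN_2776710, the genotype differences kept their direction and their side of the threshold under the alternatives, except as follows. On the standard diet Clec7a was 0.979 with background level as a covariate and lost its call. Under caloric restriction Gpnmb gained one at 0.804 as z-scores and 0.762 with array weights, as did Clec7a at 0.812 with array weights. With resveratrol ILMN_2776710 gained one at 0.827 with array weights and 0.78 with only the groups compared. Array weights also led to calls after NR, in young mice for Gpnmb (2.59), Clec7a (2.71) and Ncoa4 (-1.79) and in old mice for Clec7a (1.09). Leaving out single arrays, the young NR differences ran from 1.35 to 2.80 for Gpnmb, from 1.41 to 2.80 for Clec7a and from -1.74 to -0.936 for Ncoa4, the outer ends without replicate 2 of Csb young NR. Under caloric restriction ILMN_2776710 turned to -0.18 with brightness as a covariate, and ran from -0.102 to 0.363 with single arrays left out. The cause was not tested.

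The other turns were of differences that were not called. With array weights, ILMN_1239843 was -0.0574 and ILMN_2776710 -0.048 on the high-fat against the standard diet in Csb, ILMN_2776710 was -0.0294 under caloric restriction against the standard diet, ILMN_1239843 was -0.0923 for age after NR in Csb, and ILMN_2648669 was -0.296 for genotype by age. With background level as a covariate, ILMN_2776710 was -0.0936 (high-fat) and -0.336 (resveratrol) against the standard diet in Csb, and 0.0789 for age in Csb. With brightness it was 0.269 for age in Csb and 0.0313 in WT, and with the deposited scores -0.0206 for genotype by age. Leaving out single arrays, Csb high-fat against standard diet ran from -0.0715 to 0.197 for ILMN_2648669 and from -0.000943 to 0.209 for ILMN_1239843, and caloric restriction from -0.0507 to 0.414 for ILMN_2776710. Age in Csb ran from -0.241 to 1.15 for ILMN_1239843, from -0.759 to 0.0489 for ILMN_3132361 and from -0.313 to 0.0966 for ILMN_2776710, and age in WT from -0.515 to 0.00613 for the last. Genotype by age ran from -0.312 to 1.13 for ILMN_2648669 and from -0.115 to 0.46 for ILMN_2776710. Array weights also led to calls of ILMN_2648669 between WT diets (adjusted p = 0.0176) and of ILMN_1239843 for genotype by age (-1.62, adjusted p = 0.0295).

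Numbers of called probes moved more than the members did. The genotype counts were 2054 on the standard diet (408 to 3712 over the alternatives), 1285 on the high-fat diet (363 to 3957), 44 under caloric restriction (5 to 411), 2737 with resveratrol (973 to 5355), 2 in young NR mice (1 to 170) and 8 in old NR mice (7 to 1236). Between diets they were 1979 in Csb (231 to 2774), 494 in WT (232 to 2350) and 444 for genotype by diet (213 to 2304). Against the standard diet in Csb they were 2544 (668 to 2771), 13 (2 to 84) and 2009 (279 to 2428) for high-fat, restricted and resveratrol, and for age 2 in Csb (0 to 232), 1978 in WT (0.767% of probes with brightness as a covariate to 24.1%, or 3361, with array weights) and 0 for genotype by age (0 to 852). With background level as a covariate the genotype counts on the standard, high-fat, restricted and resveratrol diets were 633, 363, 6 and 973. For genotype by diet, only the groups compared is the same fit as the main one. Replicate numbers, as given in the sample titles, did not pair arrays (median correlation of same-numbered deviations 0.0038 and 0.029 in the diet and injection arms). Column names of the deposited intensities carry other numbers for some arrays, which were not used for pairing. The columns of Csb old saline replicate 2 and WT old NR replicate 2 carry the same number. With a replicate block ILMN_2648669 differed by 1.48 on the standard diet, and no member's call changed. Clec7a (ILMN_1239843) lay near background in young WT arrays and in most WT arrays of the diet arm. Where no array of a WT group detected it, its fold is a bound or is not given.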
